A study of Homo sapiens with 4 samples.

Results

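Accessible regions at the ends of long noncoding RNA (lncRNA) genes were compared between LNCaP prostate cancer cells and enzalutamide-resistant LNCaP cells. The peak summits of 4 ATAC-seq libraries were widened by 250 bp on each side and overlapping windows were merged, which gave 151102 regions. A region was kept when its strongest summit lay within 1 kb of either end of a RefSeq lncRNA gene of GRCh38.p14 and more than 3 kb from both ends of every protein-coding gene. This held for 5317 regions (3.52% of all), at 4520 of the 18303 lncRNA genes in the table.

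LNCaP is an androgen-responsive line from a lymph node metastasis of prostate cancer, and enzalutamide is a drug that blocks the androgen receptor. The control group held 2 libraries of LNCaP cells with the genotype label WT and no treatment label, and the resistant group held 2 libraries of cells labelled LNCaP-resistance, with the genotype label resistance cells and a treatment with enzalutamide. The labels give RPMI-1640 with serum for both groups, and the batch labels repeat1 and repeat2 occurred in each group. The study first adapted the parental cells to charcoal-stripped serum, which is low in androgens, and then raised the drug stepwise to derive its resistant sublines, and the names of the resistant lists carry the number of the subline LN-35, which the sample labels do not give. Resistance, the drug itself and growth at low androgen cannot be told apart in this design, and the libraries of a group came from 1 line, so that differences describe these lines. ATAC-seq uses a transposase that inserts adapters into open DNA, and a summit is the position of highest signal within a called peak.

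lncRNAs are transcripts without a long open reading frame, made by RNA polymerase II. Some act near their own gene, some scaffold proteins or bind other RNAs, and others serve as precursors from which microRNAs or small nucleolar RNAs are cut. Many lncRNA promoters share their nucleosome-free start with a neighbouring gene, and many others are read from enhancers that are open in only a few cell types. CpG islands, stretches of DNA rich in CpG, mark the starts of broadly used genes. Prostate cancer has several lncRNAs with a known link to the androgen receptor, such as PCGEM1, PART1 and DRAIC.

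Sequence windows of 300 bases at gene starts (250 before and 50 after the start, RefSeq GRCh38.p14) are shown for 7 genes, picked as examples of CpG content. Capitals mark CpG dinucleotides. PCGEM1 and LINC00844 had a region in the LNCaP libraries only, MIR31HG and LINC01233 in the resistant libraries only, PAX8-AS1 and GATA3-AS1 stood higher in the resistant libraries, and FARS2-AS1 had the largest difference in the other direction.
PCGEM1 (chr2:192749595-192749894, plus strand): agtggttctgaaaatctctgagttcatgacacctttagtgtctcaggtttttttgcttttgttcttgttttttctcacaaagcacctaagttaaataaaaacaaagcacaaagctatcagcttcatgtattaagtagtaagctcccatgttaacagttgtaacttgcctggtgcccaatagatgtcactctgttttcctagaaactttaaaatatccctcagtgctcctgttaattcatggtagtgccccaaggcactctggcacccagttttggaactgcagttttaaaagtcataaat
LINC00844 (chr10:58999268-58999567, plus strand): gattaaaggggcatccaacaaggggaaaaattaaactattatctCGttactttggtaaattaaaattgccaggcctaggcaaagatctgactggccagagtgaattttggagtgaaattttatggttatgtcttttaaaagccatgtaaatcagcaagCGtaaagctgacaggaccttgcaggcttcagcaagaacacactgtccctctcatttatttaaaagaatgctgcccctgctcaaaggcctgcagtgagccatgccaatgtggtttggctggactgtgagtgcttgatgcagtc
MIR31HG (chr9:21559749-21560048, minus strand): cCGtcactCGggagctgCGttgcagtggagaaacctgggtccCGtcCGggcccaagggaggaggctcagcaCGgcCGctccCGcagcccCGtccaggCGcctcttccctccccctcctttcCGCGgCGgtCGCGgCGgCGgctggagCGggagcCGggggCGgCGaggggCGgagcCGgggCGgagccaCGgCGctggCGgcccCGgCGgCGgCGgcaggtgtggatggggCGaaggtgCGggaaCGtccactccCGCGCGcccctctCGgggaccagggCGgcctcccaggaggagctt
LINC01233 (chr19:22532376-22532675, plus strand): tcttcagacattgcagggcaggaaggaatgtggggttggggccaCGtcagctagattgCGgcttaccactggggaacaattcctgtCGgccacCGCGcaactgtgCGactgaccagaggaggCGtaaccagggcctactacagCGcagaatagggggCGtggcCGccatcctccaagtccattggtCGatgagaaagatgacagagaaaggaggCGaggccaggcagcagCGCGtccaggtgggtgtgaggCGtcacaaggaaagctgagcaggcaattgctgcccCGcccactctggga
PAX8-AS1 (chr2:113235277-113235576, plus strand): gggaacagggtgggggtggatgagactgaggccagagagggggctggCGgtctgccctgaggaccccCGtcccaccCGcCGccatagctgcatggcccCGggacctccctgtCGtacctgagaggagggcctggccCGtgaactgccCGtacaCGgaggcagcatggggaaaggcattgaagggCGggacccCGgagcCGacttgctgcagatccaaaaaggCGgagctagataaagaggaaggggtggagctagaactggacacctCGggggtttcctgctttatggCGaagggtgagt
GATA3-AS1 (chr10:8053435-8053734, minus strand): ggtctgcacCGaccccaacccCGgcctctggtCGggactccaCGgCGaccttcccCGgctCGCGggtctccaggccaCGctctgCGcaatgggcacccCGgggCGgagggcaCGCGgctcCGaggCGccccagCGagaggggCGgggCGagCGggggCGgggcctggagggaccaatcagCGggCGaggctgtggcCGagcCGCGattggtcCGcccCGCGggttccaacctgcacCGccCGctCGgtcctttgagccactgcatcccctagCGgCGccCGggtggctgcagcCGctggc
FARS2-AS1 (chr6:5458026-5458325, minus strand): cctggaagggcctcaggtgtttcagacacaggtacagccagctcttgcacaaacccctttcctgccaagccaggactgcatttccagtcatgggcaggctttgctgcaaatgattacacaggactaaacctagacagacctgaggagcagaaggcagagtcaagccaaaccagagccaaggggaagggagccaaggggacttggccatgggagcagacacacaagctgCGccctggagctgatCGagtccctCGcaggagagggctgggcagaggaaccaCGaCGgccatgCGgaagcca
The PCGEM1 window held 0 CpG and the LINC00844 window 2, against 39 in the MIR31HG window, 16 in that of LINC01233, 15 in that of PAX8-AS1 and 36 in that of GATA3-AS1. FARS2-AS1 had 6. The GC content ran from 38.0% (PCGEM1) to 77.7% (MIR31HG). These examples do not stand for every gene of their kind. The window of LINC02835, which had a region in the LNCaP libraries only, held 11 CpG at a GC content of 55%. That of PCAT29, which stood higher in the resistant libraries, held 1 CpG at 38.7%.

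Some of the lncRNA genes are hosts of microRNAs, whose mature sequences are given here with the seed (bases 2 to 8), the part that pairs with targets, in capitals.
miR-31-5p: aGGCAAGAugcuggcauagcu
miR-181a-5p: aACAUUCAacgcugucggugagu
miR-181b-5p: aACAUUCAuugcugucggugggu
miR-17-5p: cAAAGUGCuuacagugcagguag
miR-20a-5p: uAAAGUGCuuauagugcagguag
miR-200b-3p: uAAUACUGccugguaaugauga
miR-429: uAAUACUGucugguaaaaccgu
miR-200a-3p: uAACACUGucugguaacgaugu
miR-205-5p: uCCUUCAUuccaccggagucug
miR-99a-5p: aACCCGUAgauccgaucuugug
let-7c-5p: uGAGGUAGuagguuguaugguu
miR-125b-5p: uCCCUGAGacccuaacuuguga
miR-155-5p: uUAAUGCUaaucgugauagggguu
miR-31-5p lies in MIR31HG, miR-181a-5p and miR-181b-5p, which share a seed, in MIR181A1HG, and miR-17-5p and miR-20a-5p, which share another, in MIR17HG. These hosts had regions that ranked higher, or were called alone, in the resistant libraries. The same mature miR-181a-5p and miR-181b-5p also lie in MIR181A2HG, whose shared region had overlapping groups (score percentiles within a library of 97.5 and 94.96 in LNCaP against 98.1 and 85.2) and whose second region was absent from the second resistant library. MIR200BHG carries miR-200b-3p and miR-429, with 1 seed, and miR-200a-3p, whose seed differs from theirs. MIR205HG carries miR-205-5p, MIR155HG miR-155-5p, and MIR99AHG miR-99a-5p, let-7c-5p and miR-125b-5p. At MIR205HG, MIR155HG, MIR99AHG and the start of MIR200BHG the regions were found in the LNCaP libraries alone or ranked higher there.

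The 4 lists differed in length, LNCaP cells having 117245 and 107344 summits and resistant cells 70866 and 45618. They hold no read counts, so the depth is unknown. Deposited scores were therefore ranked within each library, as the percent of its summits with an equal or lower score, called the percentile below. Of 8 prostate luminal genes, 7 had a summit within 1 kb of an end in every library (KLK3 had none), and of 8 genes of other cell types only CD3E had one, in the first LNCaP and the first resistant library. Nothing in the labels says that the libraries of a group came from separate cultures, so the spread between them may be technical.

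Regions at lncRNA ends held 3.46% of the summits of the first LNCaP library (95% Wilson interval 3.35 to 3.56%) and 3.52% of those of the second (3.41 to 3.63%). In the resistant libraries they held 4.38% (4.23 to 4.53%) and 4.73% (4.54 to 4.93%). These intervals cover counting error only. The groups did not overlap, with means of 3.49% ± 0.0443 in LNCaP and 4.56% ± 0.250 in resistant cells (SD, n = 2 each), 1.07 points apart, with a pooled SD of 0.179. The two-sided exact permutation test gave p = 0.333, the smallest value that 2 against 2 libraries allow. Summits in regions near protein-coding ends, here within 3 kb of one, went from a mean of 20.1% to 32.0%. Those away from both kinds of end went from 76.3% to 63.3%.

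The regions were then classed by which libraries held them. A summit in all 4 libraries, called shared, was present in 1472 of the 5317 regions (27.7%, against 21.1% of all merged regions). A summit in both LNCaP libraries and neither resistant library, called LNCaP-only, was found in 1191 (22.4%, against 27.5% of all regions). The opposite pattern, called resistant-only, was found in 351 (6.60%, against 3.84% of all regions). The remaining 2303 had mixed patterns, 1536 regions being held by 1 library alone. Regions near protein-coding ends (within 3 kb) were shared in 43.5%, LNCaP-only in 13.3% and resistant-only in 5.09% of cases, and regions away from both in 15.3%, 31.2% and 3.41%. Within 1 kb of a protein-coding end, the limit used for lncRNA ends, the shares were 54.7%, 8.40% and 5.17%. In the shared and LNCaP-only shares the lncRNA ends lay between the other kinds, and they had the highest resistant-only share of the 3 kinds. No test was made of these shares, since regions are not replicates of a cell type. With equal numbers of summits per library (the highest-scoring 45618 of each) the order of the counts turned, to 391 LNCaP-only and 661 resistant-only regions, while the shares still lay below (12.2% against 17.1%) and above (20.7% against 14.9%) those of all regions. The resistant-only share was then 17.1% near protein-coding ends and 13.7% away from both. Without the second resistant library 822 regions were resistant-only (15.6%, against 12.0% of all regions), and without the second LNCaP library 1792 were LNCaP-only (36.4%, against 46.9%).

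**Figure D1:**
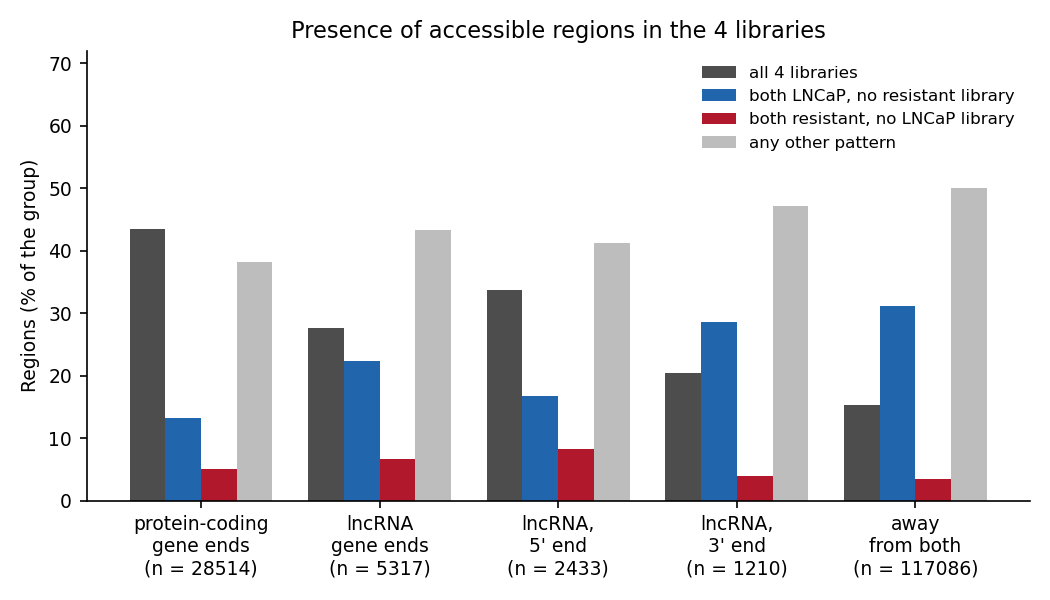
Bars give the percent of regions with each pattern of presence in the 4 libraries, for regions near protein-coding gene ends, at lncRNA gene ends, at the 5′ or 3′ end of lncRNA genes whose strand is known, and away from both. Regions in all 4 libraries made up 43.5% near protein-coding ends, 27.7% at lncRNA ends and 15.3% away from both, and resistant-only regions were most frequent at lncRNA 5′ ends (8.30%).

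The start of a lncRNA gene differed from its end. The direction of transcription was known for 3643 of the regions, 2433 at a 5′ end and 1210 at a 3′ end. At 5′ ends 33.8% were shared, 16.7% LNCaP-only and 8.30% resistant-only. At 3′ ends the shares were 20.5%, 28.5% and 3.88%, close to those of all merged regions (21.1%, 27.5% and 3.84%). Among 5′ ends, the strongest summit lay within 100 bp of the start in 42.1% of the resistant-only regions, 38.2% of the shared and 25.6% of the LNCaP-only regions. The median distance from the start was 131 bp for resistant-only, 164 bp for shared and 333 bp for LNCaP-only regions. In each class between 55.9% and 60.3% of these summits lay upstream of the start.

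**Figure D2:**
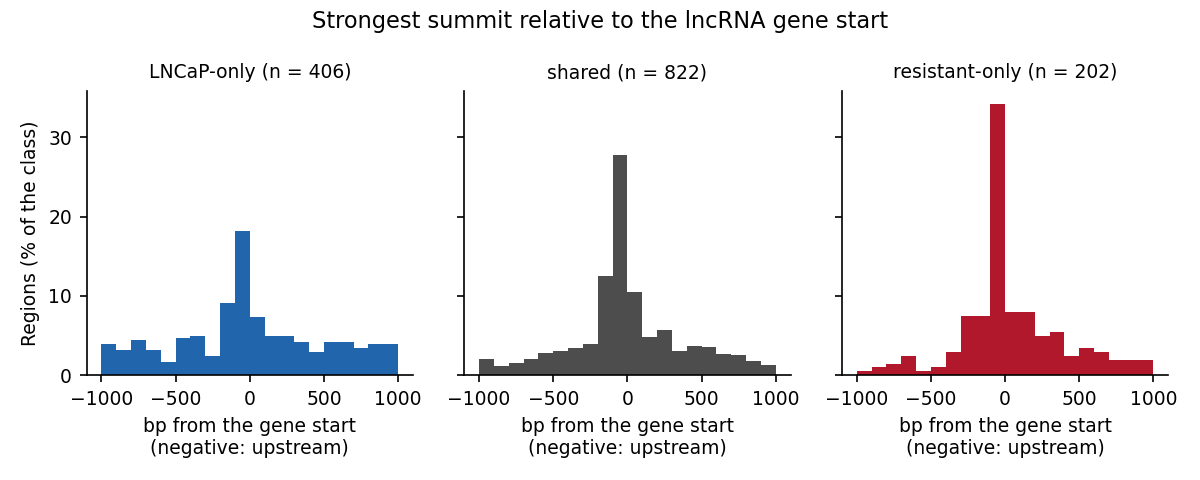
Histograms of the position of the strongest summit relative to the annotated start of the lncRNA gene, in bins of 100 bp, for regions at 5′ ends, each as percent of its class. All 3 classes peak just upstream of the start, and the LNCaP-only regions are spread more evenly over the window, with 25.6% within 100 bp against 42.1% of the resistant-only regions.

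Gene starts with LNCaP-only regions were poor in CpG. A window was called CpG-rich when its CpG count exceeded 0.6 of that expected from its C and G. Of 11063 lncRNA windows at an annotated start, 26.0% were CpG-rich, against 66.4% of 13819 protein-coding windows. The 2141 starts with a region were split by class. CpG-rich were 365 of 764 windows with shared regions (47.8%), 88 of 184 with resistant-only regions (47.8%) and 24 of 364 with LNCaP-only regions (6.59%). The windows are those of the gene starts and not of the regions themselves, whose own sequence was not analysed here: the region overlapped the window at 628 of the shared, 151 of the resistant-only and 241 of the LNCaP-only starts, and windows on chromosome 8 were not used here. The median GC content was 58.3%, 59.3% and 47.7% in that order. PCGEM1 and LINC00844, printed above, are examples of the CpG-poor starts, and MIR31HG of the CpG-rich ones. The ratio in the LINC01233 window was 0.599, just under the threshold, and that in the PAX8-AS1 window was 0.504, also under it.

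The contrast between LNCaP-only and shared starts was present at each level of the LNCaP percentile. Where the mean LNCaP percentile was at most 50, 6.35% of 189 LNCaP-only and 39.5% of 119 shared windows were CpG-rich. Between 50 and 80 the shares were 5.51% of 127 and 47.8% of 289, and above 80 they were 10.4% of 48 and 50.6% of 356. Among shared regions, 55.0% of the windows were CpG-rich where both resistant libraries stood higher (n = 160) and 30.2% where both stood lower (n = 278). At protein-coding starts LNCaP-only was likewise the lowest class, with 31.6% of 301 starts CpG-rich, while resistant-only starts (74.8% of 489) lay below shared ones (89.0% of 7819). By resistant percentile the resistant-only and shared lncRNA starts were not alike at each level: at most 50, 43.6% of the resistant-only and 21.9% of 160 shared windows were CpG-rich, between 50 and 80 the shares were 52.8% of 72 and 45.4% of 291, and above 80 they were 54.5% of 11 and 63.3% of 313. The share among LNCaP-only lncRNA starts stayed between 5.63% and 8.49% over the alternatives that kept the 0.6 threshold.

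**Figure D3:**
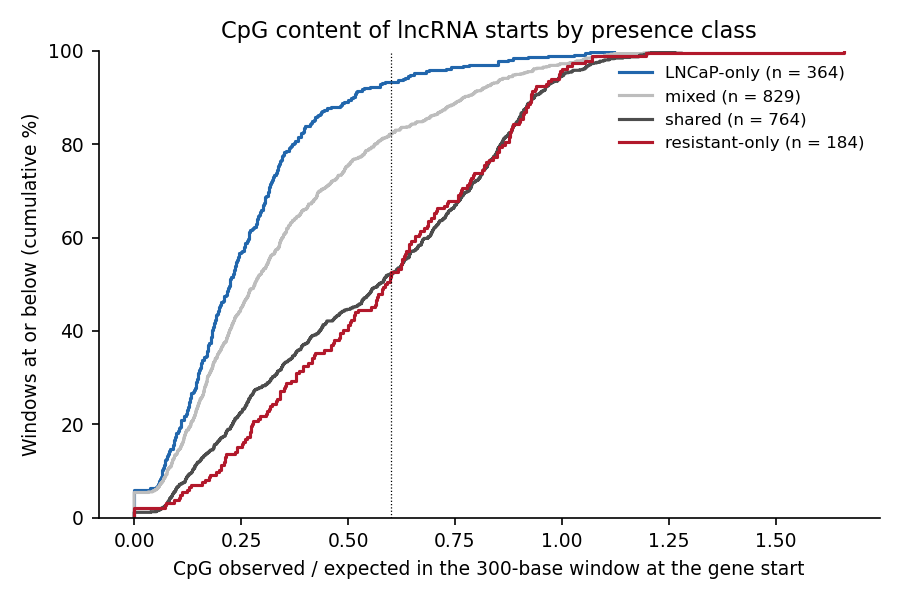
Cumulative percent of lncRNA start windows by the ratio of observed to expected CpG, for 4 classes of region. The dotted line is the 0.6 threshold: 6.59% of the LNCaP-only windows lie above it, against 47.8% of both the shared and the resistant-only windows, whose curves run close together when regions of all strengths are pooled.

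Letters of transcription factor motifs were searched on both strands of the windows. Shares below are given for LNCaP-only, shared and resistant-only windows, then for all 11063 lncRNA windows and for all 24882 windows of both gene kinds. AGAACA, 1 arm of the androgen receptor element, was present in 26.4%, 14.5% and 20.1%, against 19.9% and 14.97%, so that resistant-only windows were at the level of lncRNA windows. The GATA letters AGATAA were present in 17.6%, 7.72% and 10.3%, against 14.2% and 10.6%. The FOXA letters TGTTTAC were present in 6.87%, 4.58% and 3.80%, against 4.50% and 3.40%. The AP-1 letters TGAGTCA were present in 9.62%, 7.07% and 7.07%, against 6.61% and 4.96%. The E-box CAGCTG was found in 19.8%, 21.7% and 16.3%, against 17.8% in both sets. CCCTC, a core of the CTCF motif, was found in 56.9%, 73.8% and 71.7%, against 61.8% and 69.8%. The full androgen receptor element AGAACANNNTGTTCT, which contains the AGAACA arm, was found in 0 windows with a region, the NFI element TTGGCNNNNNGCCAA in 1 and the GRHL letters AACCGGTT in 6. A+T content was higher in the LNCaP-only windows, and its part in these shares was not tested.

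Several strong LNCaP regions had no counterpart in the resistant lists. Of 492 regions above the 90th percentile in the first LNCaP library, 1 was absent from the second, 80 (16.3%) from the first resistant and 104 (21.1%) from the second resistant library. The same absences were 4.14% and 6.03% near protein-coding ends and 27.2% and 38.6% away from both, with the lncRNA ends between them. In the other direction, 14 of 333 such regions of the first resistant library (4.20%) were absent from the first LNCaP library, against 2.02% near protein-coding ends and 5.30% away from both. Of the 1191 LNCaP-only regions, 150 had a mean percentile over 80 (12.6%, against 11.0% of all LNCaP-only regions), and of the 351 resistant-only regions 15 did (4.27%, against 4.53%). The nearest resistant summit was more than 10 kb away from 54.9% of the LNCaP-only regions, and the nearest LNCaP summit from 29.1% of the resistant-only regions. Within 1 kb lay a summit of the other cell type for 3.86% and 10.5%. The resistant lists hold fewer summits, and the part of list length in these distances was not tested. The same percentages over all LNCaP-only and resistant-only regions were not computed.

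The strongest LNCaP-only region lay 628 bp into LINC02730 (chr11:134008593-134009094), an intergenic lncRNA gene whose nearest protein-coding end is that of IGSF9B. Its percentile was 99.98 in the first and 99.99 in the second LNCaP library, higher than nearly every summit in them, and the nearest resistant summit was 25325 bp away. LINC02835 had a region 25 bp upstream of its start (99.5 and 98.8), 77722 bp from the receptor tyrosine kinase gene EPHA5, and the nearest resistant summit was 151997 bp away. A region at LOC105374655 (99.3 and 98.9), in a stretch far from coding genes, had its nearest resistant summit 465319 bp away. LOC124902789 (99.7 and 95.9) lies 4873 bp from an end of ETS1, a gene for a transcription factor. The other 6 of the strongest 10, at LOC124901568, LOC124906076, ZFPM2-AS1, LOC105377143, LOC107984309 and LOC124909457, had percentiles between 96.8 and 99.2. At LOC124909457 a resistant summit lay 727 bp away, outside the merged window.

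The strongest resistant-only regions ranked lower within their libraries. LOC124903854 (chr1:15603353-15603860), 67 bp upstream of the start, had percentiles of 94.0 and 90.1. LINC01233, among the zinc finger genes of chromosome 19, had 94.4 and 81.4 at 42 bp upstream of its start, and the nearest LNCaP summit was 101612 bp away. A region inside LINC01509 (83.0 and 87.3) lay 19094 bp from KLF4, a gene for an epithelial and stem cell transcription factor. MYRF-AS1 (86.9 and 83.0) runs antisense within MYRF, which encodes a myelin regulatory factor. LOC124903047, LOC105375980 and LOC107986516 had values between 81.1 and 91.2, with the nearest LNCaP summit at least 9577 bp away. For LOC124901783 (90.1 and 87.7), LINC01399 (90.5 and 78.9) and LINC01354 (84.4 and 84.1), an LNCaP summit lay 788, 544 and 650 bp away, outside the merged windows. LINC01399 and LINC01354 belong to 19 genes that had both an LNCaP-only and a resistant-only region, HOXA-AS2, PAK6-AS1 and DLG3-AS1 among them.

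Among the 1472 shared regions, the resistant minus LNCaP difference in mean percentile had a median of -4.16 points, close to the -4.66 of all 31869 shared regions, while it was -0.0457 near protein-coding ends and -13.3 away from both. Both resistant percentiles lay above both LNCaP percentiles in 274 (18.6%, against 17.7% of all shared regions) and below them in 598 (40.6%, against 41.8%). The lncRNA ends therefore differed little from shared regions in general. The median was -2.55 at 5′ ends and -11.5 at 3′ ends. The sign of the median over all shared lncRNA-end regions depended on the setting. It was 4.95 with equal numbers of summits and 2.65 when percentiles were taken among shared regions alone. Without the first resistant library it was -9.18.

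**Figure D4:**
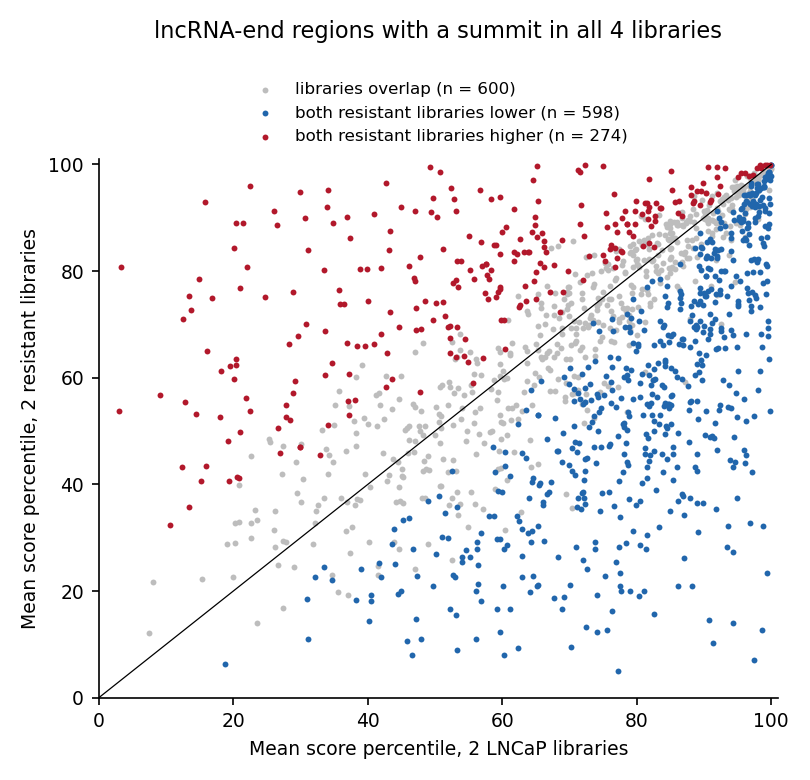
Each point is 1 of the 1472 lncRNA-end regions with a summit in all 4 libraries, at its mean percentile in the 2 LNCaP libraries (x) and in the 2 resistant libraries (y). Blue points (598) have both resistant libraries below both LNCaP libraries, red points (274) have both above, and the line marks equal percentiles.

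Of the 8 largest differences toward the resistant cells, 4 lay at gene starts, and the strand of the other 4 genes was not known. LINC02897, near the zinc finger gene ZNF669, had percentiles of 5.71 and 0.800 in LNCaP and 80.1 and 81.5 in resistant libraries, a difference of 77.6 points with a pooled SD of 2.56. LOC105371710 had 23.6 and 7.97 against 94.1 and 91.9, and LINC02837 had 37.3 and 7.62 against 98.7 and 93.0. LINC02633 on chromosome 10 had 25.1 and 34.7 against 94.66 and 95.03. In all 4 the LNCaP libraries differed more from each other than the resistant ones did, and the groups lay far apart. LINC02780, LOC112268295, LOC105372244 and LOC105376984 had differences between 64.1 and 68.6 points.

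The largest differences toward LNCaP began with FARS2-AS1, 187 bp upstream of its start within the gene for a mitochondrial phenylalanyl-tRNA synthetase. Its percentiles were 96.5 and 98.4 in LNCaP and 4.67 and 9.58 in resistant libraries, a difference of -90.3 points (pooled SD 2.62). SRGAP3-AS2 had 99.5 and 97.6 against 21.4 and 3.86. RAP1GAP2-AS1, in a gene for a regulator of the small GTPase Rap1, had 99.6 and 99.2 against 36.8 and 10.1. LOC105377048, 9879 bp from the gut and brain peptide gene CCK, had 96.6 and 85.0 against 25.5 and 3.86. LOC124905959, LINC02489, LINC03108 and OSMR-DT had differences between -80.9 and -67.2 points. These 8 sites were still called in both resistant lists, with percentiles between 0.780 and 36.8. None of these differences reversed under the alternatives tried, several of which could not alter them.

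The regions with the highest minimum percentile over the libraries were at LOC105372309, LINC00663, LOC100128966, LOC124903062, LOC107984043 and LOC124902274. Their percentiles were at least 99.1 in every library. The groups still did not overlap at LINC00663 (-0.0346 points), LOC124903062 (-0.148) and LOC100128966 (0.155). The first and the second lie in the cluster of zinc finger genes on chromosome 19, beside ZNF682 and ZNF506.

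Lists of known lncRNAs gave the named genes below. Of 28 prostate cancer lncRNAs, 13 had regions, 20 in all, of which 7 were shared, 2 LNCaP-only, 1 resistant-only and 10 mixed. Of the shared, 2 stood higher and 4 lower in the resistant libraries, with a median difference of -3.66 points. Among all regions 21.1% were shared, 27.5% LNCaP-only and 3.84% resistant-only, and of all shared regions 17.7% stood higher and 41.8% lower. PCA3, PCAT1, PCAT14, ARLNC1, HOTAIR and CCAT1 had no summit within 1 kb of an end in any library, which says only that none was called. A further 8 genes, PCAT6, PCAT7 and UCA1 among them, had a region within 1 kb of an end that was not counted here.

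PCGEM1, a prostate lncRNA with reported ties to the androgen receptor, had a region 76 bp upstream of its start with percentiles of 47.8 and 33.1 in LNCaP and none in resistant libraries. LINC00844, an androgen-regulated lncRNA, had 61.8 and 13.6 and likewise none. Both LNCaP libraries held these regions at middling or low rank. DRAIC, known to restrain invasion of prostate cancer cells, had 66.2 and 67.2 in LNCaP, 8.28 in the first resistant and no summit in the second resistant library. PART1, a prostate and androgen-regulated transcript, had 97.4 and 97.3 against 85.9 and 73.9, a difference of -17.4 points (pooled SD 6.01). SCHLAP1, which is linked to aggressive disease, had 69.1 and 49.5 against 31.1 and 46.4, but stood higher in the resistant cells with equal numbers of summits. All these loci ranked lower in both resistant libraries or were absent there.

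PCAT29, on the same part of chromosome 15 as DRAIC, had the opposite direction, with 51.5 and 52.9 in LNCaP and 64.4 and 65.1 in resistant libraries. The difference was 12.5 points, with a pooled SD of 0.798. PVT1, beside MYC, had 62.1 and 53.6 against 78.1 and 71.5. PCAT19 had a region in the resistant libraries only, at 33.6 and 47.9. MALAT1, an abundant nuclear lncRNA, had 70.7 and 81.8 against 73.0 and 72.2 at its 5′ end, where the groups overlapped, and 89.7 and 88.8 against 80.03 and 81.8 at its 3′ end, where the direction turned (1.82 points) with equal numbers of summits. DANCR stayed between 96.6 and 99.6 in every library. NEAT1, which builds nuclear paraspeckles, had 3 regions, each in the first resistant library alone. PCAT18 had 4 regions and PRNCR1 2, all mixed. A PRNCR1 region had 88.8 and 81.4 in LNCaP, 46.9 in the first resistant and no summit in the second resistant library. A PCAT18 region had 41.1 in the first and none in the second LNCaP library, against 77.3 and 45.4. The other PCAT18 regions were absent from the second resistant library.

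Of 115 host genes of small RNAs, 46 had regions under the rule, 57 in all, and 28 more had a region within 1 kb of an end that was not counted. The 57 are described here. Of these 25 were shared, 7 LNCaP-only, 2 resistant-only and 23 mixed, and among the shared 8 stood higher and 4 lower in resistant libraries (median difference -0.568 points, against -4.66 over all shared regions). The 12 regions at hosts of small nucleolar RNAs (SNHG genes) were shared in 9 cases, with 0 LNCaP-only, 0 resistant-only and 3 mixed, and of the shared 3 stood higher and 0 lower. Over all merged regions 21.1% were shared, and of these 17.7% stood higher and 41.8% lower. SNHG26 had 57.1 and 45.1 in LNCaP against 82.8 and 85.6, SNHG33 had 63.0 and 56.9 against 91.8 and 82.7, and SNHG5 had 69.2 and 73.9 against 89.97 and 87.5. SNHG15, SNHG21 and SNHG30 kept a shared region with percentiles of at least 92.5 in all libraries.

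MIR31HG, whose CpG-rich start is printed above, had 66.8 and 61.1 in resistant and no summit in LNCaP libraries. MIR181A1HG had 28.6 in the first and none in the second LNCaP library, against 97.3 and 90.9. MIR17HG, which carries a cluster of microRNAs known for promoting growth, had 69.9 and 62.6 against 88.6 and 80.4. MIR31HG thus has no LNCaP percentile to set beside the resistant ones, and MIR181A1HG has 1. MIR3147HG had the highest resistant values, 99.5 and 99.4 against 50.7 and 47.8. MIR4300HG had 50.7 and 43.4 against 92.6 and 89.997, and MIR3667HG and MIR3150BHG differed by 40.6 and 40.8 points. At MIR7-3HG a resistant-only region (68.5 and 52.9) lay beside a mixed one that both LNCaP libraries held.

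MIR200BHG, host of microRNAs that keep epithelial cells in their state, had 90.3 and 85.9 in LNCaP, 8.90 in the first resistant library and none in the second. MIR99AHG had 80.7 and 43.4 and MIR155HG 63.0 and 43.4 in LNCaP, each with none in the resistant libraries. MIR205HG, whose microRNA marks basal epithelium, had 20.3 and 9.38 and likewise none. The region of MIR155HG lies at the 3′ end of the gene, and those given for the other 3 hosts at the start. A second MIR200BHG region, at its 3′ end, was held by the first resistant library alone (8.41). MIR646HG had an LNCaP-only region beside a mixed region with 96.1 and 90.4 against 4.67 and none. MIR29B2CHG had 86.7 and 86.3 against 79.2 and 68.9 at its start, which turned in direction with equal numbers of summits.

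**Figure D5:**
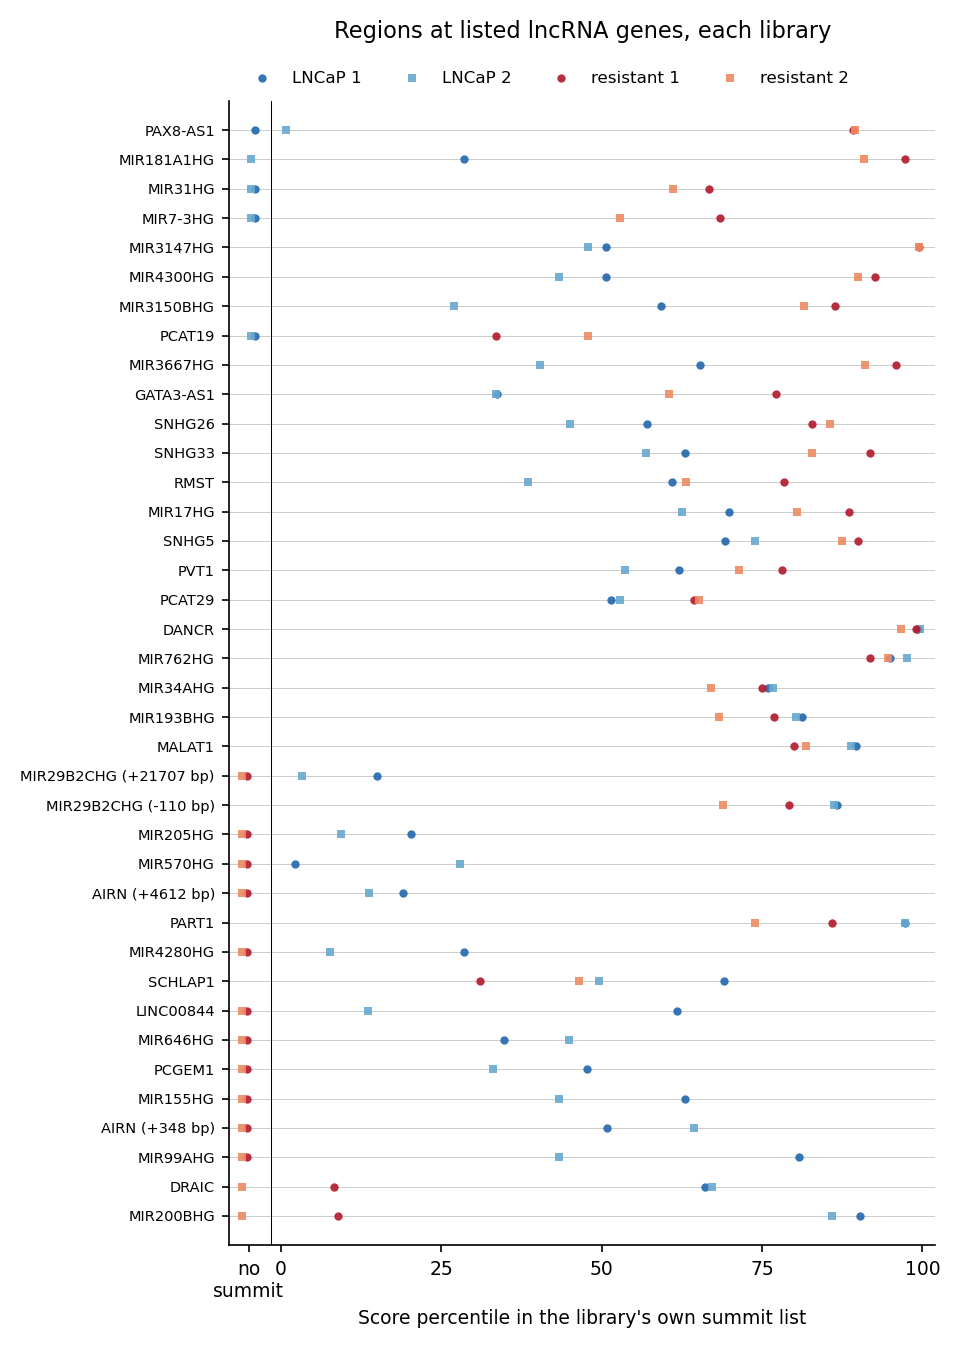
Percentile of each region in each of the 4 libraries, for regions at the listed genes that were present in 1 cell type only or whose groups did not overlap, with 4 mixed regions (PAX8-AS1, MIR181A1HG, DRAIC, MIR200BHG). Blue symbols are LNCaP and red symbols resistant libraries, points left of the line had no summit, and distances in brackets are from the gene start. Regions are ordered from MIR200BHG, absent or at 8.90 in the resistant libraries, to PAX8-AS1 at 89.2 and 89.5.

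Of 19 neural and developmental lncRNAs, 5 had regions under the rule, and 8 more, HOTTIP and CRNDE among them, had a region near an end that was not counted. PAX8-AS1, antisense to a developmental transcription factor gene, had no summit in the first LNCaP library and 0.810 in the second, against 89.2 and 89.5. GATA3-AS1, which starts in the GATA3 locus, had 33.8 and 33.5 against 77.2 and 60.5, a difference of 35.2 points (pooled SD 8.36). RMST, a neuronal lncRNA, had 60.9 and 38.5 against 78.5 and 63.1, so that the groups nearly touched. MIAT and MIR9-2HG had groups that overlapped. Of 9 imprinted lncRNAs, 4 had regions, and AIRN had 2, both LNCaP-only (50.8 and 64.4 at its start, 19.1 and 13.8 at its other end). The shared regions of KCNQ1OT1 (87.7 and 92.8 against 93.6 and 86.1) and MEG9 had overlapping groups.

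By gene symbol, 3352 regions (63.0%) belonged to genes known only by a LOC number. They were LNCaP-only in 24.0% and resistant-only in 6.26% of cases. Intergenic LINC genes (876 regions) had 22.0% and 7.42%, and antisense genes (667) 18.3% and 7.65%. Genes divergent from a coding gene (82) had 23.2% and 4.88%. Shared regions made up 26.0%, 28.5%, 31.0% and 32.9% of these classes. Regions inside a protein-coding gene (1716) and outside (3601) had similar shared percentages, 28.0% and 27.5%, and resistant-only percentages of 5.24% and 7.25%. With distance from coding genes the shared percentage was lower, 34.6% at 3 to 10 kb, 30.3% at 10 to 50 kb, 23.5% at 50 to 200 kb and 16.3% beyond, and the LNCaP-only percentage went from 17.8% to 29.4%. The resistant-only percentage stayed between 5.88% and 7.43%.

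At the limits of the rule, the 368 regions whose summit lay 900 to 1000 bp from a lncRNA end were LNCaP-only in 27.2% and resistant-only in 3.26%, and the 363 regions at 1000 to 1100 bp, just outside, in 24.0% and 4.41%.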

How the data were processed

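ATAC-seq was measured in 4 libraries, 2 per cell type. Each library came as 1 list of summits, called by the authors on that library, deposited with a score of the form −log10 p-value or q-value; which of these it is, and the settings used, are not given in the sources used here. Scores start just above 1.30, that is −log10 of 0.05. The submitters' processing notes name hg38, Bowtie2 2.2.5, SAMtools 1.6 and MACS2 2.2.6. No reads or counts are used, so precision per region is unknown.

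Regions, percentiles, classes and shares were computed in Python 3.11.15 with pandas 2.3.3, numpy 2.4.6 and scipy 1.17.1 and checked on simulated lists. Presence is a description without a test; the percent of summits in regions was compared by an exact permutation test over libraries. Strand came from RefSeq promoter windows. Regions named are the 10 strongest of each cell type, the 8 largest differences each way, the 6 with the highest minimum percentile, and those at listed genes held by both libraries of a cell type. NEAT1, PCAT18 and PRNCR1 were named after their values were seen, NEAT1 having no region that met this rule. Some listed regions with overlapping groups or mixed patterns are counted without being named. Of the listed symbols, NESP-AS1 and NKX2-2-AS1 were not matched. The regions, gene lists and tests were chosen with earlier results of these data known. The batch label is shared by equal replicate numbers, which pairs the libraries; the deviations of the pairs had a correlation of -0.0128 over 31869 shared regions. Alternatives were other windows, a score of at least 10, equal list lengths, other distances, other membership rules, each library left out, the replicate block and other CpG thresholds.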

Additional observations from a re-analysis of the deposited data

How the results depend on the processing

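Regions at lncRNA ends kept a higher share of summits in resistant than in LNCaP libraries under every alternative tried, with differences of 0.549 to 1.16 points, and of 0.896 to 1.24 points with a library left out. The number of LNCaP-only regions was 625 with a score of at least 10, 391 with equal numbers of summits, 2892 with lncRNA ends within 3 kb, 2195 with membership by at least 1 library, 387 for genes with a name other than LOC and 406 at known 5′ ends, and 1238 to 1792 with a library left out. The number of resistant-only regions was 661 with equal numbers of summits (20.7%, 14.9%) and 602 with lncRNA ends within 3 kb (5.39%, 3.84%). It was 883 with membership by at least 1 library (16.6%, 12.9%). For genes other than LOC it was 141 (7.18%, 3.84%), and at known 5′ ends 202 (8.30%, 3.84%). With a library left out it was 424 (8.61%, 5.23%) to 822 (15.6%, 12.0%), the highest without the second resistant library. The median difference of shared regions was 4.95 with equal numbers of summits and 2.65 with percentiles among shared regions, both reversed in sign. It was -9.18 to -2.36 with a library left out. The first setting leaves out summits of the longer lists and the second ranks the same regions on another scale. What turned the sign was not tested. Genes other than LOC and 5′ ends were added after seeing the data, as were all CpG alternatives.

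The CpG-rich share at starts with shared regions was 56.6% with a score of at least 10, 51.6% with equal numbers of summits, 39.8% with membership by at least 1 library, and 41.0% to 47.7% with a library left out. At resistant-only starts it was 36.4% with membership by at least 1 library and 38.0% to 46.8% with a library left out, and at LNCaP-only starts 7.02% to 8%. With CpG thresholds of 0.5 and 0.75 the shares were 55.4% and 33.1% (shared), 10.7% and 3.57% (LNCaP-only) and 58.7% and 32.1% (resistant-only).

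The replicate block compares libraries of the same batch label and averages over the labels. For the difference in summit share (1.07 points) and the median difference of shared regions (-4.16 points) the block gives the main value by construction. It is therefore no check of these 2 results. Within the labels the share differences were 0.925 and 1.22 points and the medians -1.37 and -7.89 points. In the block 1 library per cell type decides. The block counted 1937.5 regions held by the LNCaP library alone and 737.5 by the resistant library alone. Shares over all regions were not computed for the block. The CpG-rich share was 43.7% for shared, 7.99% for LNCaP-only and 40.1% for resistant-only starts. Of 1635 values for 109 named regions under 15 alternatives, 9 reversed: LINC01399 with 500 bp windows (-0.00193 points), MIR29B2CHG at its start (1.44), MIR34AHG (22.3), MALAT1 at its 3′ end (1.82), MIR193BHG (13.6), MIR762HG (0.342) and SCHLAP1 (12.9) with equal numbers of summits, and MIR34AHG (6.57) and MIR193BHG (1.47) with percentiles among shared regions. The cause was not tested. A further 240 values moved by at least the pooled SD of the region without being called reversed. Only LNCaP-only or resistant-only regions and those with groups that did not overlap could be called reversed, and a missing summit was given the lowest value. Alternatives that changed only the distances, the choice of strongest summit, the membership rule or the set of genes could not alter these values.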

Other observations

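Resistant-only regions at lncRNA ends were unevenly spread over chromosomes. They made up 12.9% of 249 regions on chromosome 9, where MIR31HG lies, against 4.58% of all merged regions of that chromosome. The percentages were 10.8% of 148 on chromosome 19 (all regions 5.84%), 10.4% of 163 on chromosome 13 (4.03%), 14.04% of 57 on chromosome X (4.87%) and 2.54% of 197 on chromosome 16 (3.65%). LNCaP-only regions were most frequent among the autosomes on chromosome 18 (32.6% of 138, all regions 34.1%) and least on chromosome 19 (11.5%, all regions 15.3%). These chromosomes were picked after their values were seen, no test was made, and copy number, which alters the signal of a chromosome, was not analysed here.

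Most lncRNA genes with a region had 1 (3793 of 4520). Both ends carried regions in 394 genes. An LNCaP-only and a shared region occurred together in 72 genes, and a resistant-only and a shared region in 27.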
